A study of Mus musculus with 5 samples.

Results

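The inhibitors of cyclin-dependent kinases (CDKs) form 2 gene families, and all 7 of their members in the mouse were examined here in reperfused hearts: Cdkn1a, Cdkn1b and Cdkn1c of the Cip/Kip family and Cdkn2a, Cdkn2b, Cdkn2c and Cdkn2d of the INK4 family. They were taken by gene symbol from 22180 symbols on the array, each of the 7 had 1 probe that carries its symbol alone, and all 7 lay above the level filter that left 15294 genes for testing (a mean log2 value of at least 3.42). The hearts came from wildtype C57Bl6J mice at zeitgeber time 12, that is, 12 h after lights on, and were perfused with buffer on a Langendorff apparatus. Every heart had 20 min of stabilisation, 20 min without flow and 20 min of reperfusion before freezing, so no value here describes tissue without ischemia. The antagonist group (n = 3) came from mice that received a REV-ERB alpha antagonist intraperitoneally, given by the labels as 10 µM, at 4 h and at 1 h before the perfusion. The sham group (n = 2) had the same perfusion and no antagonist. Which compound it was, and whether sham animals had vehicle, is left unsaid in the labels. The values are log2 expression values made by the authors with RMA, and each array is labelled a biological replicate.

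CDKs paired with cyclins drive the cell cycle by phosphorylating the retinoblastoma protein and its relatives, which frees E2F factors to switch on genes of DNA replication and mitosis. INK4 proteins bind CDK4 and CDK6 and keep cyclin D away from them, whereas Cip/Kip proteins bind complexes of cyclins with CDKs and chiefly block CDK2. Most heart muscle cells of the adult have left the cell cycle, and Cip/Kip inhibitors are among the proteins linked to that state. Cdkn1a, which encodes p21, is the classical target of p53, and it also responds to glucocorticoids and to stress. In liver it has been described as a gene that REV-ERB alpha represses and ROR receptors activate, through the DNA element that these receptors share, so a blocked REV-ERB alpha poses the question of how Cdkn1a and its relatives behave in the heart.

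The arrays were alike in scale, with medians between 3.92 and 3.95 and pairwise Pearson correlations across probes of 0.986 to 0.990. The heart muscle genes were high on all of them: Myh6, the alpha myosin heavy chain gene, lay between 12.33 and 12.40, and Tnnt2 between 12.61 and 12.65. Of 8 endothelial markers 5 were higher and 3 lower with the antagonist, with list means of 8.16 and 8.27 in sham and 8.21 to 8.26 with the antagonist. Among them Pecam1 differed by 0.05 ± 0.03 (SE) with overlapping groups, and Cdh5 was lower without overlap (-0.23 ± 0.05). Antagonist replicate 2 stood apart in atrial, adipocyte and mesothelial genes. Bmp10, an atrial gene, measured 10.86 on it, 5.88 and 5.57 on the other antagonist arrays and 3.42 and 4.81 in sham. The mean of 6 atrial markers was 9.76 on it and 6.90 to 7.55 on the other 4 arrays, and the mean of 6 adipocyte markers was 5.84 against 3.73 to 3.98. The mean of 5 mesothelial markers was 5.01 against 4.26 to 4.29. Of 8 fibroblast markers 6 were lower with the antagonist and 1 higher, with list means of 7.59 and 7.88 on the sham arrays and 7.47 to 7.66 on the antagonist arrays. Col1a1, a collagen gene of fibroblasts, differed by -0.28 ± 0.20, with sham replicate 2 (7.53) above the other arrays (6.90 to 7.01). Lum (-0.39 ± 0.15) and Tcf21 (-0.12 ± 0.04) were lower without overlap, where 6.33% of all genes tested were. The median difference of the fibroblast list was -0.20, and -0.04 without sham replicate 2. Of 8 macrophage markers 5 were higher and 3 lower, with means of 6.78 and 6.93 in sham and 6.83 to 7.01 with the antagonist. Within that list Fcgr1 (0.34 ± 0.06) and C1qa (0.38 ± 0.18) were higher without overlap, as were Cdkn1a and 6.19% of all genes tested. Cd68 was lower without overlap (-0.26 ± 0.17), as 6.33% of all genes were. The nearest values of the groups were 7.04 in sham and 7.07 with the antagonist for C1qa, and 7.01 and 7.0 for Cd68. The groups overlapped for the rest of the list. Among 7 mural (vessel wall) markers 5 were lower, 1 higher and 1 equal, with a median of -0.10 (0 without sham replicate 2). Myh11 of this list was lower without overlap (-0.10 ± 0.05), as 6.33% of all genes were. The neutrophil genes S100a8 and S100a9 were below the level filter. In whole tissue such as this, fewer cells of a type and less RNA per cell cannot be told apart.

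Of the 7 inhibitors, Cdkn1a was the one with a wide gap between the groups. It measured 7.29 and 7.06 on the sham arrays and 7.87, 7.83 and 8.03 on the antagonist arrays. Each antagonist heart was thus above both sham hearts, and the gap of 0.54 between the groups was more than the range within either group. The group means were 7.17 ± 0.16 (SD, n = 2) and 7.91 ± 0.11 (SD, n = 3). The log2 difference, antagonist minus sham, was 0.74 ± 0.11 (SE), or 1.67-fold, with a 95% interval of 1.35 to 2.06 in the fold from limma's moderated error. By size the difference was number 41 from the top among 15294 genes, and 0.301% of the genes differed by as much in either direction. It did not pass the test across all genes: the limma adjusted p was 0.64. At an adjusted p under 0.05, 0 of 15294 genes (0%) were called in this comparison. An exact permutation test (two-sided, 10 possible divisions) gave p = 0.10, the smallest that 2 against 3 can reach.

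**Figure D1:**
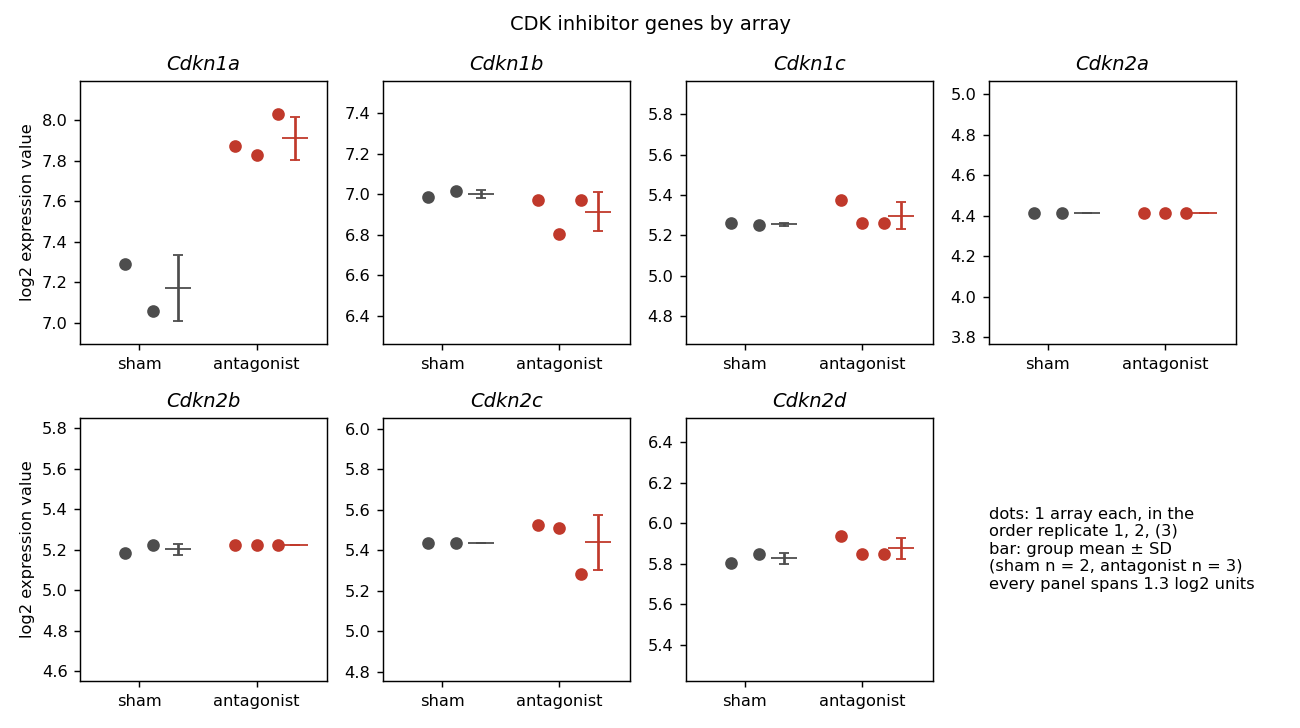
Log2 expression value (vertical axis) of each CDK inhibitor gene on the sham arrays (grey, n = 2) and the antagonist arrays (red, n = 3), 1 dot per array, with the group mean and SD beside the dots. Every panel spans the same range; the groups are well apart for Cdkn1a (at most 7.29 in sham, at least 7.83 with the antagonist) and lie close together or overlap for the others.

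The Cdkn1a difference was present whichever array was left out, between 0.62 (without sham replicate 2) and 0.86 (without sham replicate 1). It was 0.78 without antagonist replicate 2, on which atrial, adipocyte and mesothelial markers were high. The value of Cdkn1a on that array (7.83) was the lowest of the 3 antagonist values. The part of atrial, adipocyte, mesothelial, endothelial, fibroblast, mural and macrophage markers in the difference was not tested.

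The other Cip/Kip genes differed by little. Cdkn1b, which encodes p27 and holds CDK2 inactive in resting cells, measured 6.99 and 7.01 in sham and 6.97, 6.81 and 6.97 with the antagonist. All antagonist values were below both sham values, but by a gap of 0.02, and antagonist replicate 2 was the 1 array that lay clearly lower. The difference was -0.09 ± 0.07 (SE; limma adjusted p = 0.64), with a 95% interval from -0.27 to 0.10, and it was -0.03 without antagonist replicate 2. Cdkn1c, the imprinted gene of p57, measured 5.26 and 5.25 in sham and 5.38, 5.26 and 5.26 with the antagonist. Only antagonist replicate 1 was above the rest, and the groups overlapped. The difference was 0.04 ± 0.05 (SE; limma adjusted p = 0.74), and 0.0047 without antagonist replicate 1.

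The 4 INK4 genes showed no separation of the groups. Cdkn2a, which encodes p16 and, in another reading frame, the p53 activator ARF, had the same value of 4.41 on all 5 arrays. Its single probe cannot tell the transcripts of p16 and ARF apart. Cdkn2b, the gene of p15 next to it on chromosome 4, measured 5.18 on sham replicate 1 and 5.22 on every other array. Its difference was 0.02 ± 0.02 (SE; limma adjusted p = 0.67). Cdkn2c, which encodes p18, had the same value of 5.43 on both sham arrays and 5.52, 5.51 and 5.28 with the antagonist. The antagonist values lay on both sides of the sham value, and the difference was 0.0047 ± 0.09 (SE; limma adjusted p = 1.0). Cdkn2d, the gene of p19INK4d, measured 5.81 and 5.85 in sham and 5.94, 5.85 and 5.85 with the antagonist. Antagonist replicate 1 was the highest, and the difference was 0.05 ± 0.04 (SE; limma adjusted p = 0.65).

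**Figure D2:**
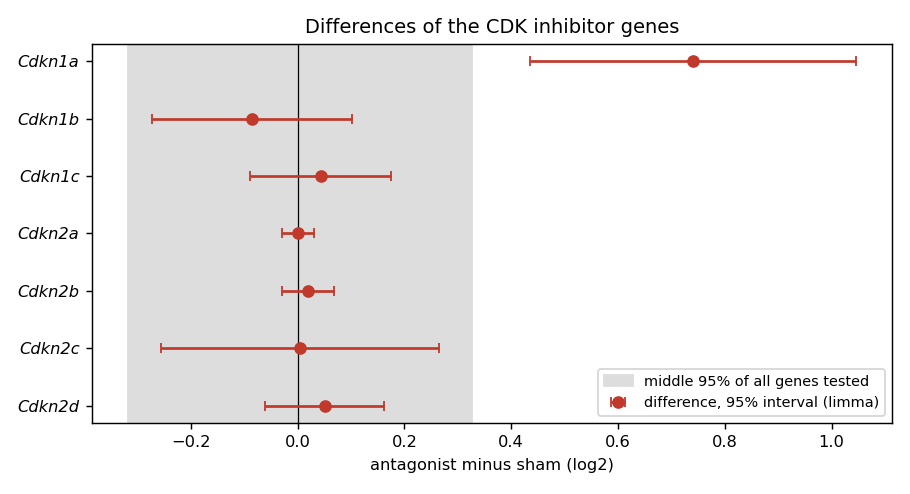
Log2 difference, antagonist minus sham (horizontal axis), of the 7 genes with limma's 95% interval. The grey band holds the middle 95% of the differences of all 15294 genes tested; Cdkn1a at 0.74 lies outside it, and the other 6 genes lie inside, from -0.09 to 0.05.

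Exactly equal values were common among the inhibitors, as they were on these arrays in general: for 73.9% of the genes tested, at least 2 arrays shared a value. Among the inhibitors Cdkn1a was the 1 gene with 5 different values. Cdkn2a had 1 value and Cdkn2b had 2 different values. The narrow intervals of Cdkn2a (-0.03 to 0.03) and Cdkn2b (-0.03 to 0.07) therefore need not measure the spread between hearts.

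Of the 7 inhibitors, 1 was higher without overlap of the groups (Cdkn1a), where 6.19% of all genes tested were, and 1 was lower without overlap (Cdkn1b), where 6.33% were. At an unadjusted limma p under 0.05, 1 inhibitor was higher (Cdkn1a; 2.23% of all genes) and 0 were lower (2.37% of all genes). The median difference of the 7 was 0.02, beside 0 over all genes tested, and it lay between 0.0047 (without sham replicate 1 or antagonist replicate 1) and 0.06 (without antagonist replicate 3) with 1 array left out. The Cdkn1a difference exceeded that of each other inhibitor by 0.69 (against Cdkn2d) to 0.83 (against Cdkn1b). Each of these 6 differences had an exact permutation p of 0.10 (0.10 after Benjamini-Hochberg adjustment over the 6 pairs), the smallest possible. All 6 share the Cdkn1a values and the other genes varied little, so they add no support beyond the Cdkn1a result itself.

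**Figure D3:**
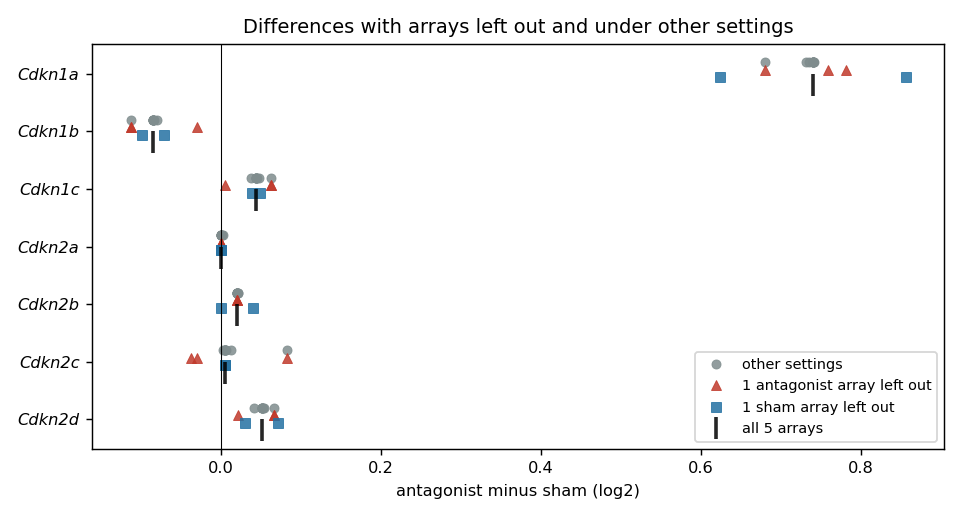
Log2 difference, antagonist minus sham (horizontal axis), of each gene with all 5 arrays (black bars), with 1 array left out (triangles for antagonist, squares for sham arrays) and under the other settings (grey dots). Cdkn1a stays between 0.62 and 0.86, and Cdkn2c lies on both sides of 0, from -0.04 to 0.08.

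The sequence before Cdkn1a was read for binding motifs because the treatment blocks a DNA-binding repressor, and the windows of Cdkn1a are shown with that of Cdkn1b, a member of the same family. RefSeq windows of 250 bases before to 50 bases after the start (build GRCm38.p6) were given for 6 of the 7 genes, 9 windows in all. Cdkn1a has 2 starts, at chr17:29090729-29091028 and chr17:29093519-29093818 (both on the + strand), and the window of Cdkn1b is chr6:134920151-134920450 (+ strand). Capitals mark half-sites of p53 in the first sequence and GC boxes (GGGCGG, the site of Sp1 factors) in the other 2.
Cdkn1a, upstream start: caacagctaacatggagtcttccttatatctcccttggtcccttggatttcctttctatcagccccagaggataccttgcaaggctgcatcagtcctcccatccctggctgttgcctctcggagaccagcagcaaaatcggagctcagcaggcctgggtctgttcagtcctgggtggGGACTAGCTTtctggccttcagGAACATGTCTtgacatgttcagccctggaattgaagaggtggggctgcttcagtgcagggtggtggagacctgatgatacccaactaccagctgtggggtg
Cdkn1a, downstream start: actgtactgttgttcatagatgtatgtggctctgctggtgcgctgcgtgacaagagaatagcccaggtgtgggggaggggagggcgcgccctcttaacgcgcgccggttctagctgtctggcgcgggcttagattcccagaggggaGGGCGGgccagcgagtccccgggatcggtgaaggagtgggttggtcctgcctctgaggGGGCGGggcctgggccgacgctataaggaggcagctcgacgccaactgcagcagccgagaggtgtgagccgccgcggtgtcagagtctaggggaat
Cdkn1b: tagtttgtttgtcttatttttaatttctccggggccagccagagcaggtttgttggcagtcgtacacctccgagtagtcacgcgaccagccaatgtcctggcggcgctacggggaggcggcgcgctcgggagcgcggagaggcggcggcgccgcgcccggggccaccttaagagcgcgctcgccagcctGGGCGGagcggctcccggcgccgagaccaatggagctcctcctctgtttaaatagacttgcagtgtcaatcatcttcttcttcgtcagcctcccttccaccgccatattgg

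The upstream Cdkn1a window held 2 matches to the p53 half-site, at positions -73 and -51 from the start, and no match to any other motif searched. A p53 half-site was found in 8.36% of 32851 windows of this length. The downstream window held 2 GC boxes, at positions -104 and -46, and the Cdkn1b window 1 (35.7% of all windows hold one). Neither Cdkn1a window contained the half-site AGGTCA of REV-ERB and ROR receptors on either strand, nor the glucocorticoid receptor half-site TGTTCT, the E-box CACGTG, the D-box TTANGTAA or the TATA box TATAAA. The REV-ERB and ROR half-site stood in 1 window each of Cdkn2a (position -67) and Cdkn2c (position -180, on the opposite strand), as it did in 16.3% of all windows. The receptor half-site of glucocorticoids was found in 19% of all windows, the E-box in 7.15%, the D-box in 2.32% and the TATA box in 13.6%. Cdkn2c held the glucocorticoid receptor half-site (position -222, on the opposite strand) and the E-box (position 35). Cdkn2d held a p53 half-site (position -102), and GC boxes stood before all 6 genes that had a window. All motifs were searched on both strands, and these matches describe letters in a short window only.

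Among the tested regulators of Cdkn1a, 1 was higher without overlap (Foxo1), where 6.19% of all genes tested were. Another 1 was lower without overlap (Klf4), where 6.33% were. The list holds transcription factors known to act on Cdkn1a, of which 25 were tested: 11 were higher, 12 lower and 2 equal, with a median difference of 0 (0 over all genes). Klf4, a zinc finger factor that can activate Cdkn1a, was lower, at 8.0 and 7.87 in sham and 7.54, 7.65 and 7.78 with the antagonist (-0.29 ± 0.09, SE; limma adjusted p = 0.64). Foxo1, a forkhead factor that insulin signalling keeps out of the nucleus, was higher on all antagonist arrays (0.25 ± 0.13). Its groups were only narrowly apart (6.86 and 6.55 in sham, 7.08, 6.91 and 6.87 with the antagonist). The second Foxo1 probe gave 0.15 with overlapping groups. Stat3, a mediator of cytokine signals, differed by 0.35 ± 0.19, with sham replicate 1 at 8.43 below the other 4 arrays (8.95 to 9.12). Irf1 had the largest difference of the list (0.71 ± 0.62), with overlapping groups and its highest value (8.16) on antagonist replicate 2. Nr3c1, the glucocorticoid receptor gene, had the same value on all 5 arrays (8.12). Nr1d1, the gene of REV-ERB alpha itself, differed by -0.28 ± 0.23 with overlapping groups, and Rora, the gene of an opposing receptor, by -0.12 ± 0.07. Trp53 was not analysed here.

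Genes with REV-ERB and ROR elements offered a comparison with Cdkn1a for the same treatment. Of 6 tested, 4 were higher, 1 lower and 1 equal, with a median of 0.04 (0.11 without sham replicate 1), and 3 were higher without overlap (Nfil3, Arntl and Cry1), where 6.19% of all genes tested were. Nfil3, a repressor of D-box genes, resembled Cdkn1a in size, at 5.90 and 5.91 in sham and 6.71, 6.48 and 6.54 with the antagonist (0.67 ± 0.08, SE; limma adjusted p = 0.62). Arntl, which encodes the clock activator BMAL1, measured 4.21 and 4.57 in sham and 4.70, 4.79 and 4.66 with the antagonist (0.33 ± 0.13; limma adjusted p = 0.64). The groups did not overlap for either gene. Cry1 measured 6.13 on both sham arrays and 6.30, 6.15 and 6.15 with the antagonist (0.07 ± 0.06), so its groups were only narrowly apart. The 1 lower gene was Nr1d1, given above. Clock differed by 0.0086 ± 0.19 with overlapping groups, and Npas2 had the same value on all 5 arrays.

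Glucocorticoid-responsive genes other than Cdkn1a had a median difference of 0.17, with 10 of 13 higher and 3 lower. It was 0.11 without sham replicate 1 and 0.23 without sham replicate 2. Fkbp5, whose protein binds the glucocorticoid receptor complex, measured 5.91 on both sham arrays and 6.88, 6.66 and 6.98 with the antagonist (0.93 ± 0.11, SE). Mt2, a metallothionein gene, differed by 0.52 ± 0.08 and Zbtb16, a zinc finger gene, by 0.51 ± 0.08. For 5 of the 13 genes all antagonist values were above both sham values (Fkbp5, Mt2, Zbtb16, Pdk4 and Mt1), where 6.19% of all genes tested were so. Mt1 was only narrowly apart (9.65 and 9.46 in sham, 9.71 to 9.73 with the antagonist). For Dusp1 all were below (6.33% of all genes). The groups overlapped for Tsc22d3 (0.18 ± 0.11), Sgk1 (0.10 ± 0.10), Per1 (-0.06 ± 0.06) and Klf9 (-0.04 ± 0.03), among others. No gene of this list passed the test across all genes.

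Other targets of p53 lay on both sides of 0. Of 27 tested, 13 were higher and 14 lower, with a median of -0.02. Sesn1, a stress-induced inhibitor of mTORC1 signalling that FOXO factors also induce, was higher, at 8.73 and 8.76 in sham and 9.17, 8.99 and 9.12 with the antagonist (0.35 ± 0.06, SE; limma adjusted p = 0.64). Rrm2b, a ribonucleotide reductase subunit of resting cells, was lower (-0.25 ± 0.12), and Fas, the death receptor gene, differed by 0.35 ± 0.20 with overlapping groups. Mdm2, the ubiquitin ligase that limits p53, measured 8.22 and 7.89 in sham and 7.96 to 7.97 with the antagonist (-0.09 ± 0.11). Its antagonist values lay between the 2 sham values. Groups did not overlap for 3 of the 27 genes (Sesn1 and Trp53inp1 higher, Rrm2b lower), or 11.1%, near the 12.5% of all genes tested.

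Among the cyclins and CDKs that the inhibitors act on, 13 of 17 tested were lower with the antagonist, 1 higher and 3 equal, with a median of -0.06. This count rested on sham replicate 2: without it 8 were lower and 4 higher, with a median of 0. Ccnd2, a D-type cyclin gene, was the 1 higher member (8.72 and 8.77 in sham, 8.77, 8.79 and 8.85 with the antagonist; 0.06 ± 0.03, SE). Ccna2, the cyclin of S phase, differed by -0.13 ± 0.07, and Cdk6, the kinase that INK4 proteins bind, by -0.17 ± 0.09. Ccnb2, a mitotic cyclin gene named after its values were seen, was lower without overlap (5.62 and 5.11 in sham, 5.0 to 5.10 with the antagonist). Ccnd2 was higher without overlap, and the groups were only narrowly apart for both genes. Among all genes tested 6.19% were higher and 6.33% lower in this way. In this list the groups did not overlap for 11.8% of the 17 tested, near the 12.5% of all genes. Cdk4 differed by -0.05 ± 0.06, Ccnd1 by -0.02 ± 0.09 and Cdk2 by -0.12 ± 0.22, where sham replicate 2 (6.40) was above all other arrays (5.73 to 5.95).

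The retinoblastoma and E2F genes were split evenly, with 8 of 17 tested higher and 8 lower and a median of 0. Without sham replicate 2, 6 were higher and 9 lower, with a median of -0.02. E2f6, a repressor of the E2F family, measured 7.75 and 8.03 in sham and 8.25, 8.09 and 8.20 with the antagonist (0.29 ± 0.11, SE; limma adjusted p = 0.64). It was the 1 gene of the 17 tested whose groups did not overlap (5.88%, beside 12.5% of all genes tested). E2f8, below the level filter and not tested, was lower on all antagonist arrays (3.38 and 3.42 in sham, 3.29 with the antagonist). Rb1, the retinoblastoma gene, differed by -0.17 ± 0.16, Lin9, of the DREAM and MuvB complex, by -0.13 ± 0.09 and E2f4, a repressive E2F, by -0.05 ± 0.03. Of the genes that E2F and the DREAM complex control, 14 of 21 tested were lower and 4 higher, with a median of -0.03. Without sham replicate 2, 11 were lower and 5 higher, and the median was -0.00012. Top2a, the topoisomerase of dividing cells, measured 4.04 and 4.08 in sham and 3.52, 3.58 and 3.76 with the antagonist (-0.44 ± 0.09, SE; limma adjusted p = 0.64). Mki67, the marker of cycling cells, measured 6.61 and 6.01 in sham and 5.49, 5.54 and 5.85 with the antagonist (-0.68 ± 0.24; limma adjusted p = 0.64). Both were lower on every antagonist array than on either sham array, the reverse of Cdkn1a. Of all genes tested 6.33% were lower in this way. The Top2a values were low, near the array medians (3.92 to 3.95), and with the antagonist not far above the level filter of 3.42. Mybl2, a cell cycle transcription factor gene named after its values were seen, was higher without overlap by 0.06 ± 0.04. Of all genes tested 6.19% were higher in this way. The Mybl2 groups were only narrowly apart, with nearest values of 4.095 in sham and 4.101 with the antagonist. Its second probe gave -0.19, but at a mean of 3.18, below the level filter. Tyms, a thymidylate synthesis gene, went the other way (0.17 ± 0.10) with overlapping groups. The Mcm2, Mcm4 and Rrm1 genes of DNA replication had the same value on all arrays. Fibroblast markers, given above, were also lower in 6 of 8 cases, and their part in these values was not tested.

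**Figure D4:**
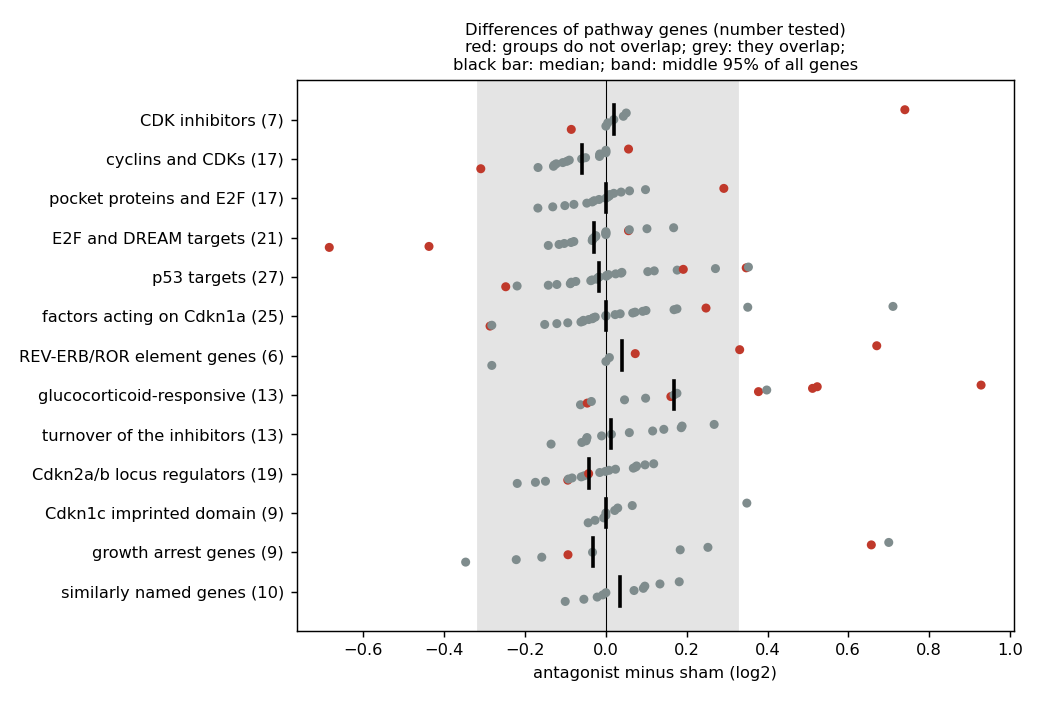
Log2 difference, antagonist minus sham (horizontal axis), of every tested gene in 13 lists around the CDK inhibitors, with the number tested in brackets. Red dots are genes whose groups do not overlap, black bars are list medians, and the grey band holds the middle 95% of all genes tested; medians lie between -0.06 (cyclins and CDKs) and 0.17 (glucocorticoid-responsive genes).

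The machinery that removes the inhibitor proteins showed no gene without overlap among 13 tested (7 higher, 6 lower, median 0.01, or -0.02 without sham replicate 1), where 12.5% of all genes were without overlap, so that a count of 0 in so short a list says little. Skp2, the F-box protein that marks p27 and p21 for destruction, measured 4.48 and 4.29 in sham and 4.18 to 4.29 with the antagonist (-0.14 ± 0.08, SE). Skp1, its adaptor, differed by 0.19 ± 0.11, but by -0.20 at its second probe, and Mkrn1, a ligase of p21, by 0.19 ± 0.11. Among 19 tested regulators of the Cdkn2a and Cdkn2b locus 7 were higher and 12 lower, with a median of -0.04. Without sham replicate 2 the counts were 9 higher and 10 lower, with a median of -0.0013, and without antagonist replicate 1 the median was -0.0019. Suz12, a Polycomb subunit, measured 6.65 and 6.64 in sham and 6.60 on each antagonist array (-0.04 ± 0.01), and Ets1, an activator of Cdkn2a, differed by -0.09 ± 0.04. Both were lower without overlap, where 6.33% of all genes tested were, and both had equal values on several arrays. Eed, another Polycomb subunit, differed by 0.12 ± 0.07.

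In the list around the imprinted domain of Cdkn1c, 4 of 9 tested genes were higher and 3 lower, with a median of 0. It had 0 genes without overlap, where 12.5% of all genes tested were, which says little in so short a list. Kcnq1ot1, the noncoding RNA that silences Cdkn1c on the paternal chromosome, differed by 0.06 ± 0.04 (SE) and Nap1l4 by 0.03 ± 0.02. Igf2, a fetal growth factor gene near this domain rather than in it, differed by 0.35 ± 0.26. Igf2 was highest on antagonist replicate 2 (6.20, against 5.37 to 5.78 elsewhere). The genes next to Cdkn1a in the RefSeq order showed no separation of the groups: Srsf3 differed by -0.02 ± 0.16, Rab44 by -0.06 ± 0.12, Stk38 by 0.14 ± 0.11 and Cpne5 by -0.05 ± 0.23, all with overlapping groups. Mtap, beside Cdkn2a, differed by -0.14 ± 0.08 with overlapping groups. Beside Cdkn1b, Gpr19 had 1 value on all arrays, Crebl2 differed by 0.03 ± 0.05, Apold1 by 0.06 ± 0.07 and Ddx47 by 0.21 ± 0.12. Beside Cdkn2c, Faf1 differed by 0.11 ± 0.06 and Rnf11 by -0.0049 ± 0.01, and beside Cdkn2d, Atg4d differed by 0.12 ± 0.07 and Kri1 by 0.02 ± 0.04. The groups overlapped for all of these.

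Among other genes of growth arrest, 4 of 9 tested were higher and 5 lower, with a median of -0.03 that was 0.10 without sham replicate 2. Gadd45b, a stress-induced inhibitor of the cell cycle, was higher without overlap (7.92 and 8.07 in sham, 8.50, 9.17 and 8.30 with the antagonist; 0.66 ± 0.31, SE), with its highest value on antagonist replicate 2. Lmnb1, a nuclear lamina gene named after its values were seen, was lower without overlap (-0.09 ± 0.06). Its groups were only narrowly apart, with nearest values of 5.08 in sham and 5.06 with the antagonist. Among all genes tested 6.19% were higher without overlap, as Gadd45b was, and 6.33% lower, as Lmnb1 was. Gadd45g differed by 0.70 ± 0.38, where antagonist replicate 3 (7.30) lay between the sham values of 6.79 and 7.45. Btg1, an antiproliferative gene, differed by 0.25 ± 0.13 with overlapping groups. Genes with similar names, outside both inhibitor families, went both ways (5 of 10 higher, 4 lower, median 0.03). They had 0 genes without overlap, where 12.5% of all genes tested were, which says little in so short a list. Cdkn3, the gene of a phosphatase that acts on CDK2, had the same value on every array, and Cdk5rap3, Cables2 and Cdk2ap1 differed by 0.10 ± 0.05, 0.13 ± 0.09 and 0.18 ± 0.13, with 0.0087 at the second Cdk2ap1 probe.

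The genes most like Cdkn1a were sought by the root mean square distance between array profiles, each value taken minus the gene's mean over the 5 arrays, among 14030 tested genes. Rbp7, a retinol-binding protein gene, was the closest at a distance of 0.08 log2 units, where the median gene lay at 0.38. It measured 5.23 and 5.20 in sham and 5.93, 5.76 and 6.12 with the antagonist (0.72 ± 0.12, SE). Mir680-2 (0.09), Ifi205 and Depp1 (both 0.12), Mir30c-2, Mbd1, Fkbp5 and Arfip1 (all 0.13) followed. Depp1, an autophagy regulator that FOXO factors induce, measured 7.76 and 7.89 in sham and 8.50, 8.45 and 8.69 with the antagonist. Ifi205 belongs to an interferon-inducible family with near-identical copies, so its probe may read relatives too. The other probes of Arfip1, a regulator of vesicle traffic, gave -0.02 (mean 6.49) and 0.01 (mean 3.0, below the level filter) in place of 0.56. The likeness is a description over 5 arrays that share the same groups.

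**Figure D5:**
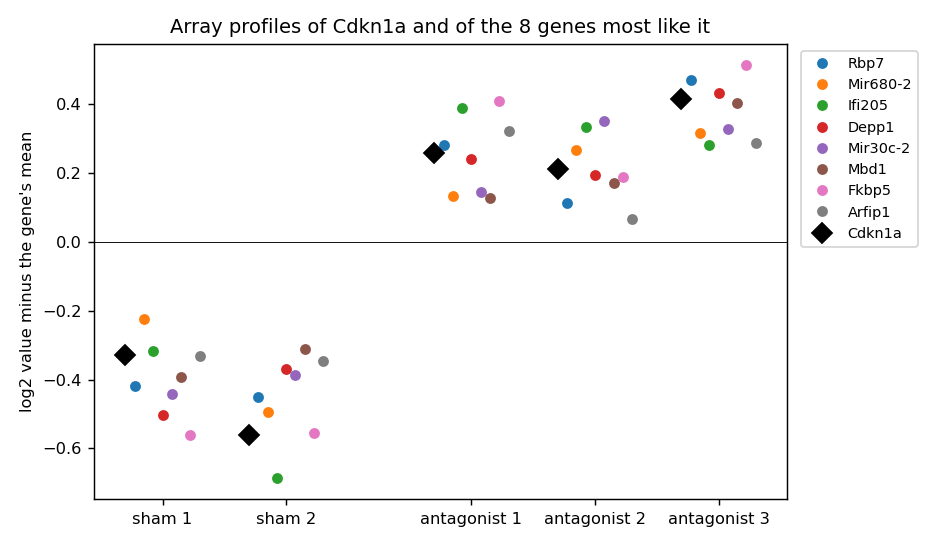
Log2 value minus the gene's mean over the 5 arrays (vertical axis) on each array, for Cdkn1a (black diamonds) and the 8 genes nearest to it (coloured dots). All 9 genes lie below 0 on both sham arrays and above 0 on the 3 antagonist arrays.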

How the data were processed

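The deposited table holds log2 values for 41345 probes on 5 arrays, which the authors made with RMA (background correction, quantile normalization, median polish), per the submitters' processing notes. The RMA software version, probe set library and build were not given in the sources used here. Each array took 300 ng of total RNA, per the labels' protocols. The number of arrays limits the precision.

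Genes were named from the platform annotation (23521 probes with 1 symbol, 1814 with several, 16010 not listed). The probe with the highest mean was kept per symbol, and genes whose mean reached the probes' 40th percentile entered limma 3.58.1 (R 4.3.3; lmFit and eBayes without covariates). Its two-sided p-values were adjusted by Benjamini-Hochberg over 15294 genes, and 0.05 was the threshold. Each difference (antagonist minus sham) has its moderated standard error (3 residual and 0.69 prior degrees of freedom). Single genes were also tested by exact permutation. Scripts were tested on simulated data. Of 299 listed symbols 273 had a probe; lists were described by counts and medians, beside those of all genes. Named were all 7 inhibitors, the 3 genes of smallest p per pathway list, members that the background names, the 8 genes most like Cdkn1a, defining cell markers and neighbouring genes; further genes without overlap (Ccnb2, Mybl2, Lmnb1, Trp53inp1, Cry1, Pdk4, Mt1, Dusp1) and Mcm2, Mcm4, Rrm1, Tnnt2, S100a9, Cdh5, Fcgr1, C1qa, E2f8 and Cdkn3 were named after their values were seen. Irf1, Clock, Npas2, Tsc22d3, Sgk1, Per1, Klf9, Lum, Tcf21 and Myh11 were also named after their values were seen. The members and lists were chosen with earlier results of these data known. Alternatives covered the level filter, normalization, probe rule, variance model, array weights, replicate block, tied values and each array left out.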

Additional observations from a re-analysis of the deposited data

How the results depend on the processing

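With 5 arrays limma called 0 genes at an adjusted p under 0.05 (704 at an unadjusted p under 0.05). Under the alternatives without an array left out it also called 0. With single arrays left out the count lay between 0 and 2058 (1319 without sham replicate 1, 2058 without sham replicate 2), where the lone sham array is assumed to vary like the antagonist arrays. Cdkn1a kept its direction under all 15 alternatives (0.62 to 0.86) and passed under none (adjusted p 0.088 to 0.94). With the replicate number as a block its difference was 0.68 and 0 genes were called. The numbers are not shown to pair hearts: the contrast of replicates 1 and 2 correlated at -0.04 between the groups. Cdkn2c turned negative without antagonist replicate 1 (-0.038) or 2 (-0.03) and reached 0.082 without antagonist replicate 3. Cdkn2b was 0 without sham replicate 1 and, without sham replicate 2, 0.04 with a limma adjusted p of 0.025, where the remaining sham array differed from 3 equal antagonist arrays. The other 4 inhibitors stayed uncalled wherever run, Cdkn1b, Cdkn1c and Cdkn2d in the same direction and Cdkn2a at 0 to 0.0016. Of 78 list medians under alternatives 9 moved by more than the spread between arrays. The number of arrays limits every comparison.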
